A study of Homo sapiens with 10 samples.

Results

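This report follows 9 genes of the p53 axis in NK-92, a human natural killer cell line established from a lymphoma. The genes are MDM2, MDM4, CDKN1A, AEN, ZMAT3, SESN1, FAS, TP53INP1 and RRM2B. They were looked up by symbol from a list of names, with no threshold on their values, and all 9 were found among the 54628 gene symbols of the deposited table. The list itself was chosen with earlier results of these data known. The series holds 10 libraries of polyadenylated RNA in 5 groups of 2. The groups were cells given no agent (0 h), cells given 500 µM deferoxamine (DFO) for 6 h or 24 h, and cells given 10 µg/mL PPMX-T003 (T003) for 6 h or 24 h. DFO is a small molecule that binds iron, and T003 is an antibody against transferrin receptor 1, the receptor for iron-loaded transferrin. All groups share the one cell line and a medium with human serum, no genotype differs between them, and untreated cells exist at 0 h only. Time in culture and agent therefore cannot be told apart in a comparison with untreated cells. The same holds for a comparison of 24 h with 6 h under either agent. Whether the replicates came from separate cultures is not labelled, and each p-value then reflects library-to-library spread that may be technical.

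The transcription factor p53 is kept low in most growing cells by MDM2, a ubiquitin ligase that marks it for destruction, and by MDM4, a relative of MDM2 that binds p53 and blocks its activity. DNA damage and other stresses loosen that hold. p53 then raises a set of genes that halt the cell cycle, repair DNA, restrain growth signalling or promote cell death, and it raises MDM2 itself, which closes a feedback loop. Iron bears on this axis because ribonucleotide reductase, the enzyme that makes building blocks of DNA, carries iron in its small subunit, and RRM2B encodes a form of that subunit that p53 can raise.

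The sequences below show where p53 could bind near the start sites of these genes according to the letters alone. The p53 half-site consensus is 3 purines, C, 2 letters that are A or T, G and 3 pyrimidines, and reads the same on both strands. A run of 20 bases made of 2 half-sites with no spacer was searched within 2500 bases on either side of the start of the canonical GENCODE 44 transcript, in the hg38 genome. With at most 2 mismatches, 7 of the 9 genes held such a run, against 11.7% of 20046 protein-coding genes. With no mismatch, ZMAT3 was 1 of 13 genes (0.0649%). The best run of TP53INP1 had 3 mismatches and that of SESN1 had 4. RRM2B had a run with 1 mismatch in intron 1, 2111 bases after its start, which is not printed here. The genes were listed as p53 targets, so these counts describe them and test nothing, and a match of letters is not evidence of binding in NK-92. Each run is given 5′ to 3′ on the strand of its gene, and capitals mark the 4 core positions, where the consensus has C, G, C and G in that order.
MDM2 (chr12:68808923-68808942, plus strand, intron 1, 2 mismatches): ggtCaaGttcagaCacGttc
MDM4 (chr1:204516933-204516952, plus strand, intron 1, 2 mismatches): gtgCttGtttgaaAatGctt
CDKN1A (chr6:36676449-36676468, plus strand, upstream of the canonical transcript, 2 mismatches): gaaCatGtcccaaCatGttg
AEN (chr15:88621306-88621325, plus strand, upstream of the canonical transcript, 2 mismatches): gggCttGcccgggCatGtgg
ZMAT3 (chr3:179070188-179070207, minus strand, intron 1, 0 mismatches): aaaCaaGtccagaCatGcct
FAS (chr10:88991309-88991328, plus strand, intron 1, 2 mismatches): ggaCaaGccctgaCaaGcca

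Relative to the start, with negative positions upstream, the middle of the run lay at 755 bases in MDM2, 536 in MDM4, 520 in FAS, 1611 in ZMAT3 and -25 in AEN. In CDKN1A the printed run lay at -2256 bases, and a further run with 2 mismatches lay at -1374 bases. In the printed run of MDM4 one of the 4 core positions departs from the consensus, whereas in the other 5 printed runs the core is intact.

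**Figure D1:**
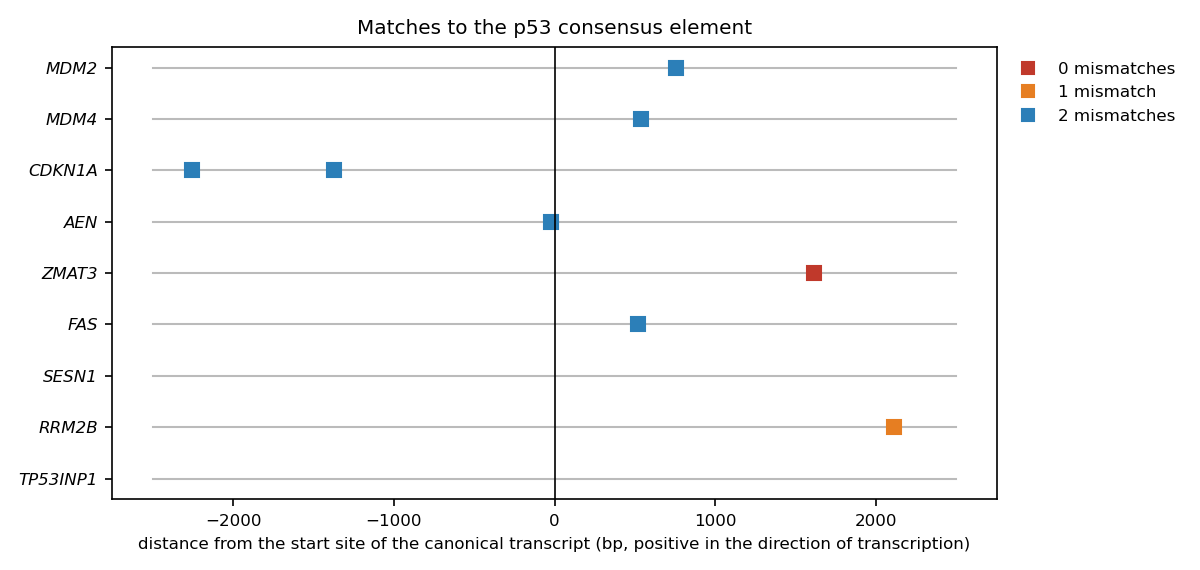
Position of each 20-base match to the p53 consensus element with at most 2 mismatches (squares, coloured by mismatches) within 2500 bases of the start site of the 9 genes; the x axis is the distance from the start in bases. ZMAT3 holds the only match without a mismatch, and SESN1 and TP53INP1 hold none within this limit.

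Library totals ran from 107117892 to 143575614 estimated counts. All 12 natural killer cell markers had a mean of at least 1 CPM (CPM, a count relative to its library total after TMM scaling). Of 7 T cell markers, 6 were under 1 CPM and TRAC lay between 14.7 and 24.6 CPM. All 4 B cell, 5 myeloid and 4 erythroid markers were under 1 CPM, as were 2 of 3 stromal and epithelial markers. The third, PDGFRB, lay between 81.7 and 112 CPM. Summed T cell markers, nearly all TRAC, were at 16.2 to 16.6 CPM in untreated cells, with 2 of the 7 at 0 in all libraries. The sums were 19.6 to 21.3 CPM with DFO and 14.7 to 24.2 with T003 at 6 h. At 24 h they were 18.6 to 22.8 CPM with DFO and 24.2 to 24.6 with T003. Summed natural killer markers were higher at 24 h (3815 to 4093 CPM) than in the 6 other libraries (3505 to 3688 CPM), but single markers went both ways. IL2RB, the marker with the highest level, was at 1033 CPM in untreated cells, 1185 with DFO and 1305 with T003 at 24 h. By contrast KLRD1 was at 49.9, 40.0 and 42.5 CPM, and EOMES at 172, 151 and 159. Summed stromal and epithelial markers were lower in the 4 libraries taken at 24 h (81.8 to 89.3 CPM) than in the 6 others (105 to 112 CPM). The part of these markers in the 24 h results below was not tested. The edgeR quasi-likelihood test with Benjamini-Hochberg adjustment was run on 20125 genes, of which 8 were among the 9; CDKN1A was too low to be tested. A gene is called changed where its adjusted p is under 0.05. Of the 12 natural killer markers, 4 were called higher and 2 lower with DFO at 24 h than in untreated cells, where 6.7% of all genes were called. With T003 at 24 h 6 were called higher and 2 lower, where the share was 12.5%. TRAC, the only T cell marker that could be tested, was not called in any comparison.

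In untreated cells the 9 genes spanned a wide range of levels. Scaled also to the length of the canonical transcript, AEN was highest at 34.9 CPM per kb, followed by MDM2 at 9.92, RRM2B at 7.59, SESN1 at 6.85, MDM4 at 3.41, FAS at 2.27, ZMAT3 at 1.48 and TP53INP1 at 0.0361. These values depend on which transcript is taken as the gene's length.

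MDM2 and MDM4, the regulators that bind p53, showed no called change against untreated cells. MDM2 (chromosome 12, 68808172 to 68850686, plus strand) was at 75.9 and 72.7 CPM in untreated cells. With DFO it measured 78.8 and 79.1 at 6 h and 75.2 and 78.9 at 24 h. With T003 it measured 75.5 and 78.4 at 6 h and 77.1 and 77.7 at 24 h. All 10 libraries lay within 1.09-fold of each other. Both libraries of DFO at 6 h and both of T003 at 24 h were above both untreated ones, and the other treated groups overlapped with them. The log2 change against untreated cells was 0.09 (SE 0.0337, adjusted p = 0.335) with DFO at 6 h and 0.05 (SE 0.0337, adjusted p = 0.8) with T003 at 6 h. At 24 h it was 0.05 (95% interval -0.02 to 0.13, adjusted p = 0.465) with DFO and 0.06 (-0.02 to 0.13, adjusted p = 0.338) with T003. From 6 h to 24 h the MDM2 difference was -0.03 with DFO and 0.01 with T003 (adjusted p = 0.638 and 0.92). The intervals against untreated cells leave out a rise of MDM2 by more than 0.13 on the log2 scale at 24 h, within the spread of these libraries.

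MDM4 (chromosome 1, 204516406 to 204558120, plus strand) was at 33.9 and 34.6 CPM in untreated cells, 35.8 and 36.8 with DFO and 37.1 and 34.9 with T003 at 6 h. The later values were 32.3 and 33.3 with DFO and 29.6 and 34.0 with T003. The 4 libraries at 6 h were thus above both untreated libraries, and those of DFO at 24 h below them, while T003 at 24 h overlapped with them. None of these changes was called. At 6 h MDM4 stood 0.08 above untreated cells on the log2 scale with DFO and 0.07 with T003 (adjusted p = 0.625 and 0.853), and at 24 h at -0.06 and -0.11 (adjusted p = 0.655 and 0.317). From 6 h to 24 h MDM4 had a log2 change of -0.18 (SE 0.0598, adjusted p = 0.0797) with T003 and -0.15 (SE 0.0597, adjusted p = 0.165) with DFO. This change rested on single libraries. Without replicate 2 of T003 at 24 h it was -0.28 and was called (adjusted p = 0.0142), and without replicate 1 of T003 at 24 h it was -0.09 (adjusted p = 0.454).

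CDKN1A (chromosome 6, 36676463 to 36687332, plus strand) encodes p21, the inhibitor of cyclin-dependent kinases through which p53 stops the cell cycle, and it was close to absent. The table gives 3 and 0 counts in the untreated libraries, 9 and 0 with T003 at 6 h, and 0 in both libraries of DFO at 6 h, DFO at 24 h and T003 at 24 h. In all, 8 of 10 libraries had 0 counts. A count of 3, taken as the limit that 0 allows, corresponds to 0.0209 to 0.0280 CPM and covers counting error only. No rise to 24 h was detectable at this depth with either agent, and no fold is given because at most 1 library exceeded that limit. The long noncoding gene DINOL, which lies within the span of CDKN1A, had 11 counts in 1 untreated library, 3 in each library of T003 at 24 h and 0 in the 7 others. The related inhibitor gene CDKN1B was at 25.1 to 28.3 CPM in the 10 libraries, and CDKN1C had 0 counts in all of them.

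**Figure D2:**
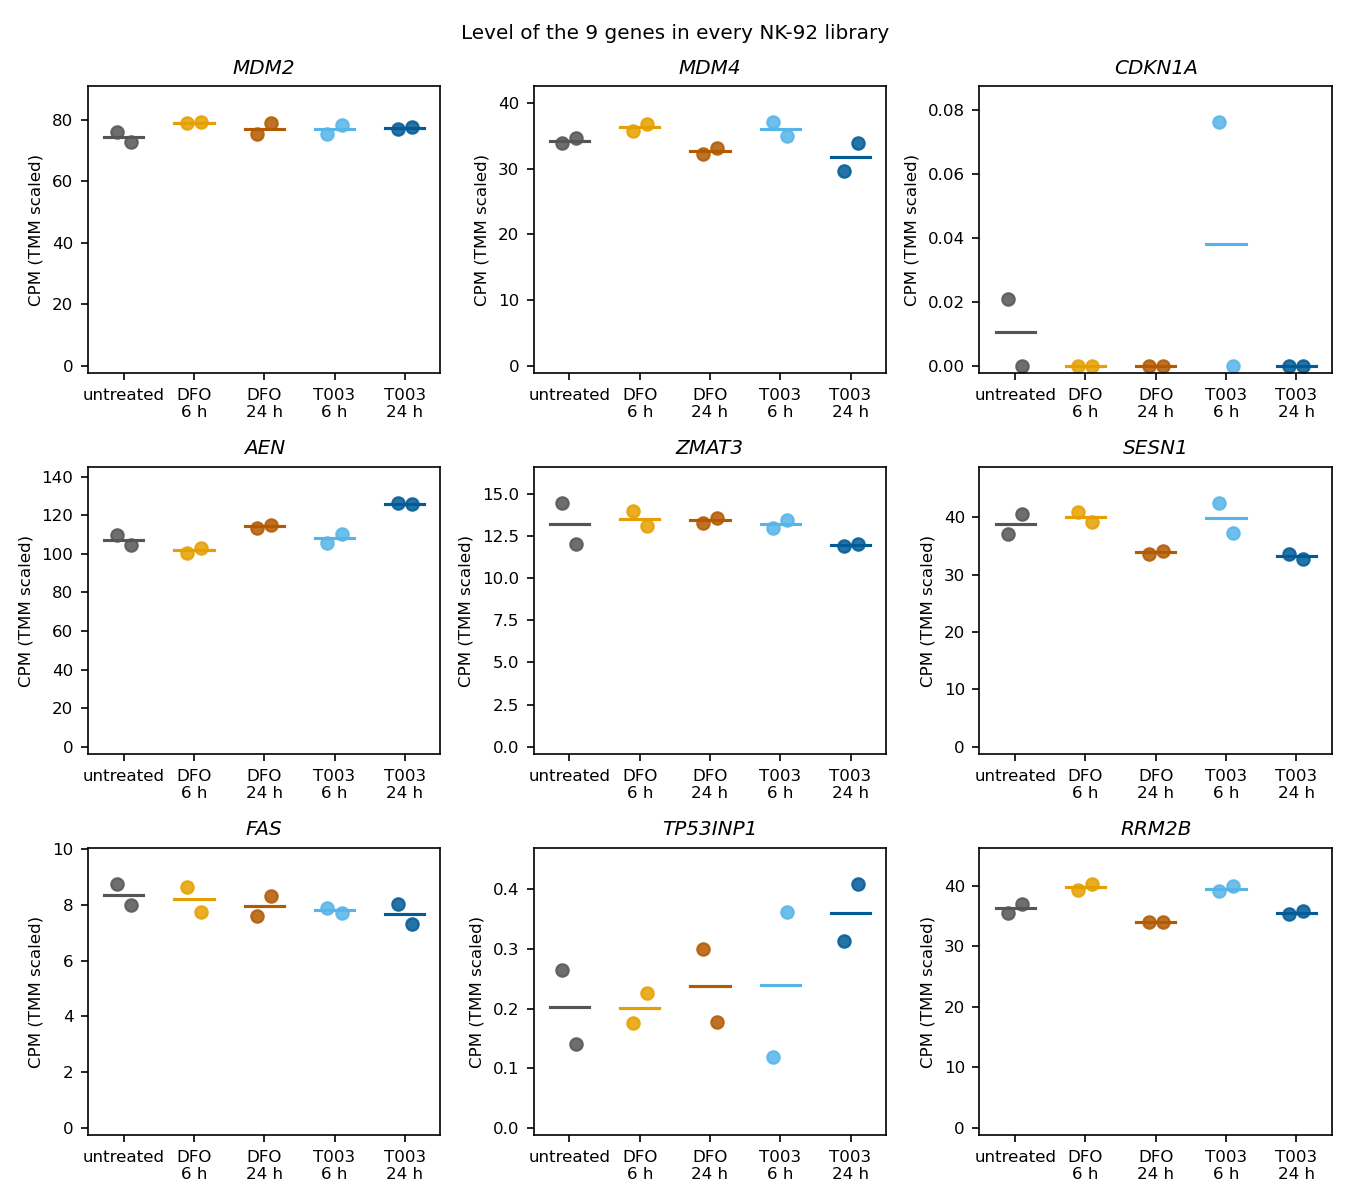
Level of each of the 9 genes in CPM (y axis from about 0, a different range in each panel) in the 5 groups; points are single libraries and bars are group means of 2. AEN is highest in the 2 libraries of T003 at 24 h, SESN1 is lower in all 4 libraries at 24 h than in the untreated ones, and CDKN1A is at 0 in 8 of 10 libraries.

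Among the genes of cell death, AEN rose with T003. AEN (chromosome 15, 88604683 to 88632281, plus strand) encodes a nuclease that takes part in DNA breakdown during apoptosis. It measured 110 and 105 CPM in untreated cells, 101 and 103 with DFO at 6 h, and 105 and 110 with T003 at 6 h. By 24 h AEN stood at 113 and 115 CPM with DFO and at 126 in both libraries with T003. The order of the group means was DFO at 6 h, untreated, T003 at 6 h, DFO at 24 h and T003 at 24 h, and the only neighbours whose libraries overlapped were untreated cells and T003 at 6 h. Against untreated cells AEN rose by 0.23 with T003 at 24 h (log2, SE 0.0311, adjusted p = 0.000783, or 1.18-fold), a call that held under all 17 alternatives. With DFO at 24 h the log2 change was 0.09 (SE 0.0311, adjusted p = 0.13), and at 6 h it was -0.07 with DFO and 0.01 with T003 (adjusted p = 0.369 and 0.978). The difference between the agents at 24 h was 0.14 (T003 above DFO, 95% interval 0.07 to 0.21) and just missed the threshold (adjusted p = 0.0531). It was called with limma-voom (adjusted p = 0.0389), with DESeq2 (0.00191) and with a filter of 1 CPM in 2 libraries (0.0379). From 6 h to 24 h AEN rose by 0.22 with T003 (SE 0.0312, adjusted p = 0.00084) and by 0.16 with DFO (SE 0.0312, adjusted p = 0.00714). The rise with DFO was not called without DFO 6 h replicate 1 or DFO 24 h replicate 2 (adjusted p = 0.0632 and 0.0575).

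FAS (chromosome 10, 88964050 to 89017059, plus strand), a death receptor of the cell surface, was at 8.74 and 8.01 CPM in untreated cells and between 7.33 and 8.66 in the 8 treated libraries. The groups overlapped except that T003 at 6 h (7.89 and 7.72) lay below untreated cells, and no change was called. The log2 change at 24 h was -0.07 (95% interval -0.27 to 0.13, adjusted p = 0.782) with DFO and -0.13 (-0.33 to 0.08, adjusted p = 0.483) with T003. At 6 h the FAS change was -0.03 and -0.10 (adjusted p = 0.945 and 0.864), and from 6 h to 24 h it was -0.04 with DFO and -0.02 with T003 (adjusted p = 0.865 and 0.926). The span of FAS overlaps ACTA2 and FAS-AS1, whose counts were 99 to 159 and 13 to 44 per library against 916 to 1256 for FAS. Strand was not stated for the counting, so reads could be shared among them.

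ZMAT3 (chromosome 3, 179017223 to 179072513, minus strand), an RNA-binding zinc finger protein that p53 raises, was at 14.4 and 12.0 CPM in untreated cells. With DFO it was at 13.9 and 13.1 at 6 h and 13.3 and 13.6 at 24 h, and with T003 at 13.0 and 13.5 at 6 h and 11.9 and 12.0 at 24 h. The last pair was the lowest group but overlapped with untreated cells. No change was called (log2 0.02 with DFO and -0.14 with T003 at 24 h, adjusted p = 0.94 and 0.366). At 6 h the ZMAT3 change was 0.03 and 0.00 (adjusted p = 0.931 and 0.999), and from 6 h to 24 h it was -0.01 with DFO and -0.14 with T003 (adjusted p = 0.973 and 0.349). The 10 libraries lay within 1.21-fold of each other for ZMAT3, the gene with the match free of mismatches.

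TP53INP1 (chromosome 8, 94925972 to 94949378, minus strand), which encodes a stress-induced protein that promotes autophagy and cell death, was scarcely expressed, at 14 to 51 counts or 0.119 to 0.408 CPM per library. Its untreated libraries were at 0.264 and 0.141 CPM (38 and 18 counts) and those of T003 at 24 h at 0.313 and 0.408 CPM (38 and 51 counts), without overlap. The other groups overlapped with untreated cells. The log2 change with T003 at 24 h was 0.82 with a 95% interval of -0.35 to 2.00 (adjusted p = 0.404), an interval that spans a fall and a rise, so a change was not detectable at this depth. With DFO at 24 h the change was 0.23, and at 6 h it was -0.01 with DFO and 0.25 with T003 (adjusted p = 0.898, 0.999 and 0.964). From 6 h to 24 h the TP53INP1 difference was 0.24 with DFO and 0.57 with T003, neither of them called (adjusted p = 0.869 and 0.587). NDUFAF6, a gene that overlaps it, had 2739 to 4008 counts per library, and reads could be shared between them.

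SESN1 and RRM2B, which encode a sensor of growth signalling and a subunit of ribonucleotide reductase, were both lower at 24 h than at 6 h with either agent. SESN1 (chromosome 6, 108984309 to 109094846, minus strand) encodes sestrin 1, which restrains the growth kinase complex mTORC1 when leucine is short. It measured 37.0 and 40.6 CPM in untreated cells, 41.0 and 39.1 with DFO at 6 h and 42.4 and 37.2 with T003 at 6 h. The values at 24 h were 33.6 and 34.2 with DFO and 33.6 and 32.8 with T003. All 4 libraries at 24 h lay below all 6 others. Against untreated cells SESN1 fell with T003 at 24 h (log2 -0.23, SE 0.0623, adjusted p = 0.0372). The change with DFO at 24 h was -0.20 (SE 0.0622, adjusted p = 0.0983), and DESeq2 called it (adjusted p = 0.022). At 6 h the change was 0.04 with each agent (adjusted p = 0.834 with DFO and 0.947 with T003). The direct difference between the agents at 24 h was -0.03 (T003 below DFO, 95% interval -0.17 to 0.11, adjusted p = 0.905). From 6 h to 24 h SESN1 fell with DFO (log2 -0.24, SE 0.0623, adjusted p = 0.0333) and with T003 (log2 -0.26, SE 0.0624, adjusted p = 0.0171).

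The SESN1 calls were narrow. The call against untreated cells ended without untreated replicate 2 (adjusted p = 0.269), without replicate 1 or 2 of T003 at 24 h (0.11 and 0.172) and when replicate number was fitted as a block (0.0502). The fall from 6 h to 24 h with DFO was no longer called without either library of DFO at 6 h or at 24 h or without replicate 2 of T003 at 24 h (adjusted p = 0.0516 to 0.195). With T003 that fall was lost without replicate 1 of T003 at 6 h (log2 -0.18, adjusted p = 0.145) or without replicate 1 or 2 of T003 at 24 h (0.0644 and 0.0961). The span of SESN1 overlaps ARMC2, which had 546 to 748 counts per library against 4079 to 5325 for SESN1. Of the other sestrin genes, SESN2 went from 16.3 ± 0.260 CPM (SD, n = 2) in untreated cells to 14.2 with DFO and 14.6 with T003 at 24 h (log2 -0.20 and -0.16, adjusted p = 0.0689 and 0.0966), and SESN3 had 0 counts in all libraries.

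RRM2B (chromosome 8, 102204501 to 102238961, minus strand) was at 35.5 and 37.0 CPM in untreated cells. At 6 h it measured 39.4 and 40.2 with DFO and 39.2 and 39.9 with T003, and at 24 h 34.0 and 33.9 with DFO and 35.3 and 35.8 with T003. The 4 libraries at 6 h were above every other library, and those of DFO at 24 h were below every other library. From 6 h to 24 h RRM2B fell with DFO (log2 -0.23, SE 0.0377, adjusted p = 0.00331), a call that held under all 17 alternatives. It also fell with T003 (log2 -0.15, SE 0.0376, adjusted p = 0.0206), a call that was lost without any one of the 4 T003 libraries (adjusted p = 0.0702 to 0.157). Against untreated cells no RRM2B change was called. The log2 changes were 0.13 with DFO and 0.12 with T003 at 6 h (unadjusted p = 0.00452 and 0.0069, adjusted p = 0.222 and 0.497) and -0.09 and -0.03 at 24 h (adjusted p = 0.201 and 0.745). The small subunit gene used in dividing cells, RRM2, was at 496 ± 8.42 CPM in untreated cells and rose by 0.13 with T003 at 24 h, to 542 CPM (SE 0.0201, adjusted p = 0.00214). It was at 506 CPM with DFO (log2 0.03, adjusted p = 0.545). RRM1, the large subunit, was at 310 ± 3.11 CPM in untreated cells, 308 with DFO and 305 with T003 at 24 h (adjusted p = 0.861 and 0.579). In untreated cells RRM2 stood at 152 CPM per kb of transcript against the 7.59 of RRM2B.

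**Figure D3:**
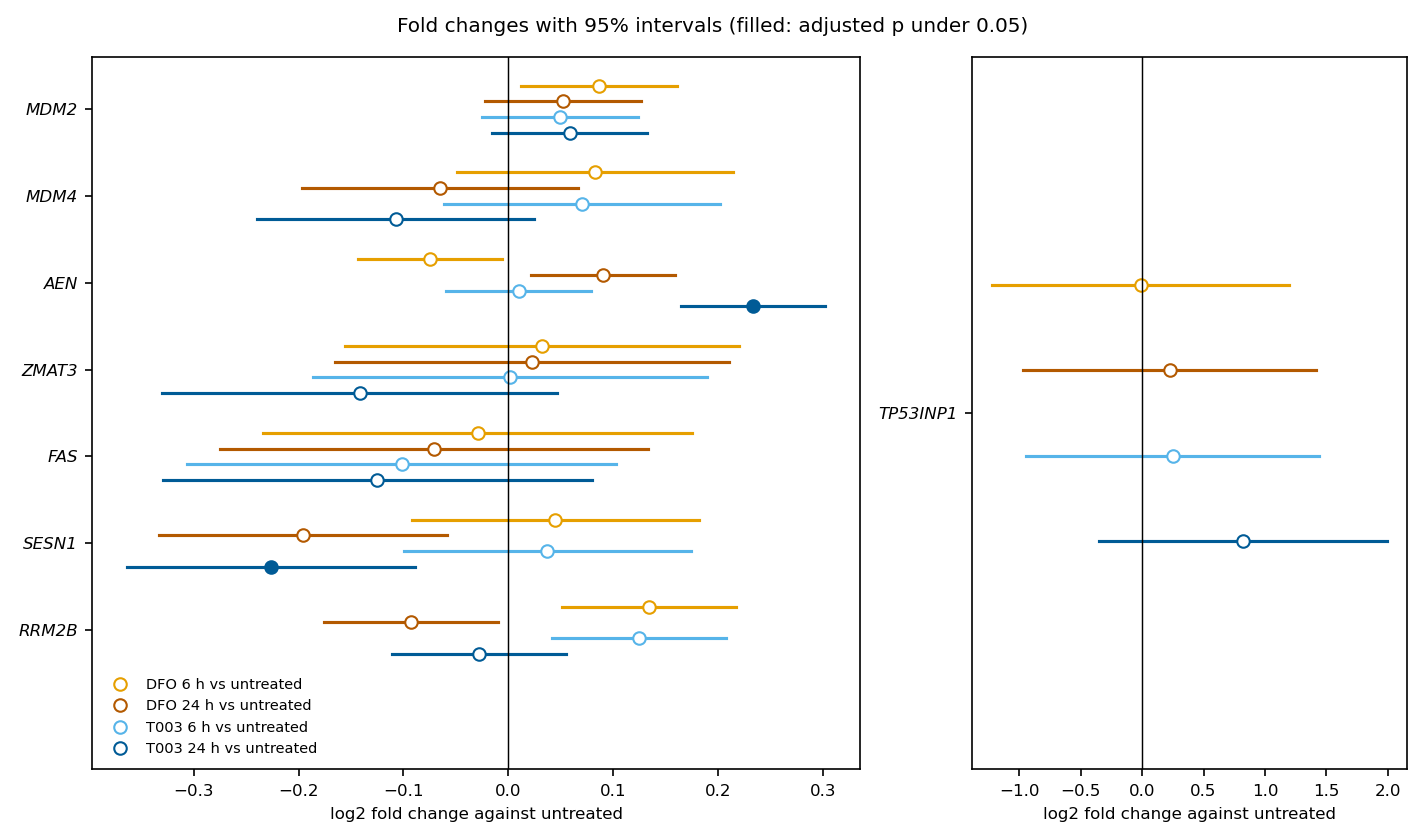
Log2 fold change of the 8 tested genes against untreated cells (x axis; points with 95% intervals, filled where the adjusted p is under 0.05; TP53INP1 on an axis of its own because of its low counts) for DFO and T003 at 6 h and 24 h. Only AEN (0.23) and SESN1 (-0.23) with T003 at 24 h are filled; RRM2B lies to the right of 0 at 6 h and to the left at 24 h.

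Counted over the 8 tested genes, 0 were called with DFO at 6 h, where 0.0248% of all genes tested were called (5 genes, against 2494 at an unadjusted p under 0.05), and 0 with T003 at 6 h, where the share was 0.0298% (6 genes, against 1516). At an unadjusted p under 0.05 there were 3 and 1 of the 8, and DESeq2 and limma-voom also called 0 of the 8 at 6 h with either agent. With DFO at 24 h 0 of 8 were called, against 6.7% of all genes. Over all genes 1349 were called, against 3822 at an unadjusted p under 0.05, 1870 with DESeq2 and 1520 with limma-voom. Of the 8, 3 had an unadjusted p under 0.05, limma-voom also called 0 and DESeq2 called 1. With T003 at 24 h 2 of 8 were called, AEN higher and SESN1 lower, against 12.5% of all genes. Between 6 h and 24 h 3 of 8 were called with DFO, against 9.89% of all genes, and the same 3 with T003, against 13.5%. In each of these AEN was higher and SESN1 and RRM2B lower at 24 h. Between the agents 0 of 8 were called at 6 h, where 0% of all genes were (0 genes, against 1334 at an unadjusted p under 0.05 and 6 with DESeq2). There 1 of the 8 had an unadjusted p under 0.05, and DESeq2 and limma-voom called 0. At 24 h the agents differed in 0 of 8 by edgeR, where the share was 1.34% of all genes. That was 270 genes, against 2794 at an unadjusted p under 0.05, 878 with DESeq2 and 380 with limma-voom. Of the 8, 1 had an unadjusted p under 0.05, and DESeq2 and limma-voom each called 1, AEN. For the other genes the T003 minus DFO difference at 24 h was 0.01 for MDM2 (95% interval -0.07 to 0.08), -0.04 for MDM4 (-0.17 to 0.09), -0.16 for ZMAT3 (-0.35 to 0.02), -0.05 for FAS (-0.26 to 0.15), 0.06 for RRM2B (-0.02 to 0.15) and 0.60 for TP53INP1 (-0.57 to 1.76). At 6 h it was 0.08 for AEN (95% interval 0.02 to 0.15, adjusted p = 0.706). For the 7 others it was -0.04 for MDM2, -0.01 for MDM4, -0.03 for ZMAT3, -0.07 for FAS, -0.01 for SESN1, -0.01 for RRM2B and 0.26 for TP53INP1 (adjusted p = 0.892 to 0.996). With 8 genes, 1 call more or less moves these shares by far, and no share was tested against the background. The comparisons with untreated cells share the 2 untreated libraries, and each 24 h group serves both its comparison with untreated cells and that with 6 h.

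The median log2 change of the 8 genes against untreated cells was 0.04 with DFO and 0.04 with T003 at 6 h, and -0.02 with DFO and -0.07 with T003 at 24 h. Over all genes tested the 4 medians lay between -0.01 and 0.00. The median size of the change, without sign, was 0.06 for the 8 genes and 0.10 for all genes with DFO at 6 h, and 0.06 and 0.08 with T003 at 6 h. At 24 h it was 0.08 for the 8 genes and 0.12 for all genes with DFO, and 0.13 and 0.14 with T003.

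A wider list of 58 other p53 target genes showed changes in both directions at 24 h. At 6 h edgeR called 0 of them with either agent, where 0.0248% of all genes were called with DFO and 0.0298% with T003. DESeq2 called 1 of them with DFO at 6 h, where it called 434 genes in all. Of the 58, 50 could be tested, 42 had a mean of at least 1 CPM and 5 had 0 counts in all libraries (EDA2R, NINJ1, PERP, PLK2 and SPATA18). After DFO for 24 h, 3 of the 50 rose while 2 fell, so that 10% were called against 6.7% of all genes tested, a difference that was not tested. TNFAIP8, which restrains caspase activation, was at 36.0 ± 1.79 CPM in untreated cells and rose by 0.52 with DFO, to 51.6 CPM (SE 0.0498, adjusted p = 0.000144). PTP4A1, a phosphatase, and TRIAP1, a mitochondrial lipid carrier partner that protects from apoptosis, rose by 0.13 and 0.18 (adjusted p = 0.019 and 0.0268). POLH, a polymerase that copies damaged DNA, fell by 0.16 (adjusted p = 0.0177). The TNFAIP8 call held under all 17 alternatives. Those of PTP4A1, TRIAP1 and POLH were each lost without untreated replicate 2 or DFO 24 h replicate 2, PTP4A1 and TRIAP1 also without untreated replicate 1, and TRIAP1 also without DFO 24 h replicate 1 (adjusted p where lost 0.0599 to 0.181). The count of 5 was 1 without untreated replicate 2 or DFO 24 h replicate 2, and 3 without untreated replicate 1 or in a fit of the compared groups alone.

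With T003 at 24 h 7 of the 50 rose and 4 fell, or 22% called against 12.5% of all genes, and 4 of these 11 are only counted here. TNFAIP8 rose by 0.47 (SE 0.0498, adjusted p = 0.000182), PTP4A1 by 0.23 (adjusted p = 0.000639) and TRIAP1 by 0.21 (adjusted p = 0.00748). BTG2, an antiproliferative gene, was at 13.1 CPM in untreated cells and rose by 0.43, to 17.7 CPM (SE 0.0727, adjusted p = 0.00282), and NOTCH1, a receptor of cell fate, by 0.30 (adjusted p = 0.00354). PCNA, the sliding clamp of DNA replication, fell by 0.13 (adjusted p = 0.00355), and XPC, which finds damaged bases, by 0.17 (adjusted p = 0.00444). Of these 7 named genes all but TRIAP1 were called in all 17 alternatives. TRIAP1 was not called without untreated replicate 2 or T003 24 h replicate 2 (adjusted p = 0.0732 and 0.0892). The median log2 change of the 50 genes was 0.05 with DFO and 0.04 with T003, against 0.00 and -0.01 over all genes.

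Of 7 targets on this list that were to be named whatever their result, PCNA fell with T003 as given above, and the 6 others, SESN2 among them, were not called with either agent at 24 h. BAX, which opens the mitochondrial outer membrane, was at 61.4 CPM in untreated cells, 63.4 with DFO and 62.2 with T003 at 24 h (adjusted p = 0.627 and 0.858). PMAIP1, the BH3-only protein NOXA, was at 48.6, 47.6 and 50.2 CPM (adjusted p = 0.862 and 0.715). BBC3, the BH3-only protein PUMA, was at 1.72, 1.44 and 1.54 CPM (adjusted p = 0.537 and 0.694). GADD45A, a stress sensor of the cell cycle, was at 4.01, 3.49 and 3.15 CPM (adjusted p = 0.59 and 0.216). PPM1D, a phosphatase that turns p53 off, was at 29.4, 29.7 and 31.0 CPM (adjusted p = 0.948 and 0.419).

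**Figure D4:**
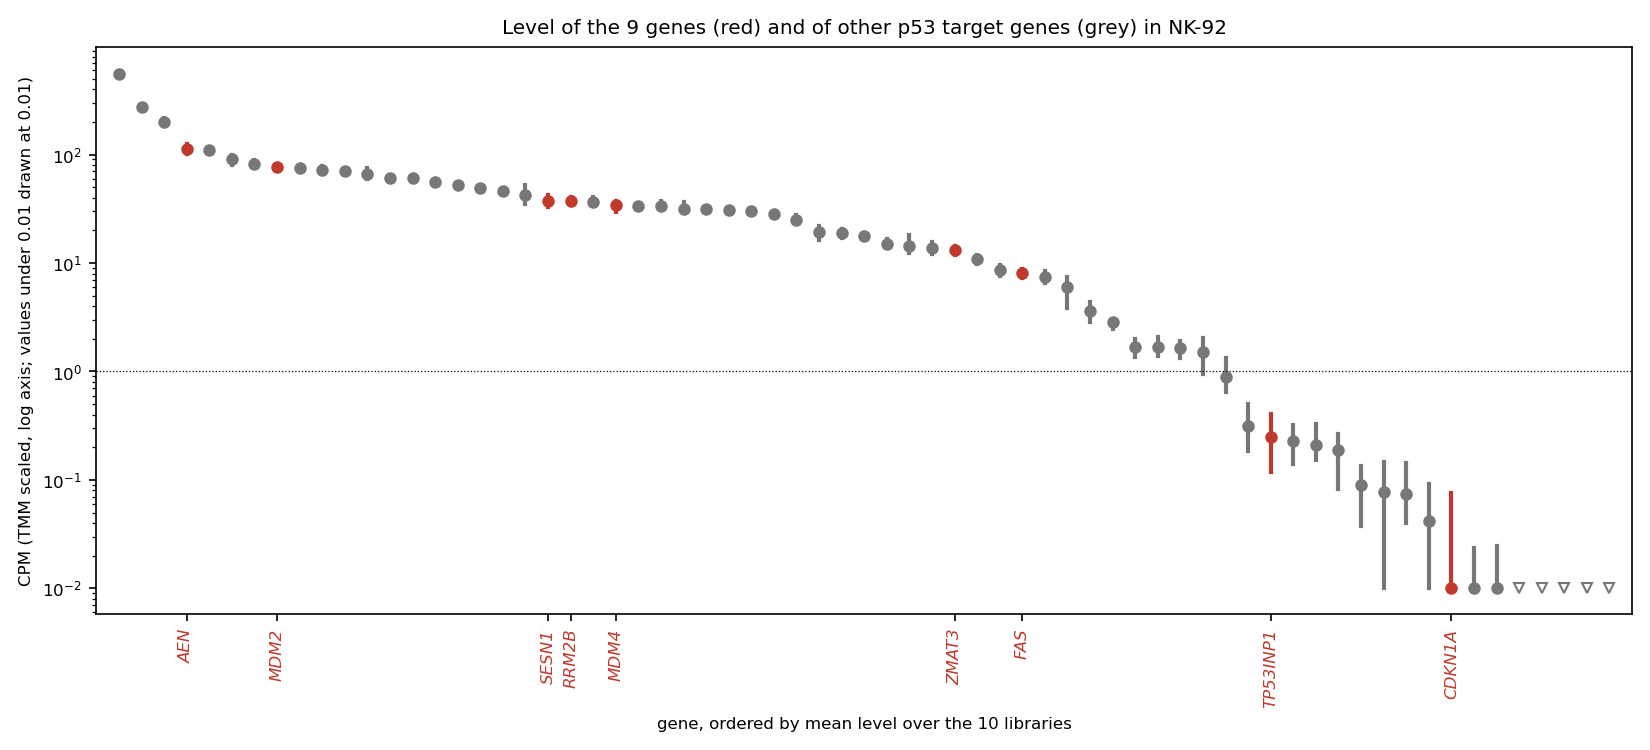
Mean level (points, log axis in CPM) and range over the 10 libraries (lines) of the 9 genes (red) and 58 other p53 target genes (grey, names not drawn), ordered by level; open triangles mark 5 genes with 0 counts in all libraries, and the dotted line is 1 CPM. AEN and MDM2 are among the higher genes, and TP53INP1 and CDKN1A lie under 1 CPM.

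Of 29 genes that act on p53 or share its family, 26 could be tested. With DFO at 24 h 2 rose and 3 fell, or 19.2% called against 6.7% of all genes. ATM, the kinase that signals double-strand breaks, and RPL5, a ribosomal protein that can bind MDM2, rose by 0.16 and 0.09 (adjusted p = 0.0291 and 0.0279). The acetyltransferase genes CREBBP and EP300 both fell by 0.17 (adjusted p = 0.00373 and 0.0144), and PPP1R13B, a protein that steers p53 towards apoptosis genes, fell by 0.19 (adjusted p = 0.0179). With T003 at 24 h 4 rose and 0 fell, or 15.4% called against 12.5% of all genes. They were ATM by 0.18, RPL5 by 0.07, TP53BP1, a DNA break adaptor, by 0.14, and PSME3, a proteasome activator that promotes p53 breakdown, by 0.13 (adjusted p = 0.00957, 0.0361, 0.0225 and 0.00275). The DFO count of 5 was 1 in a fit of the compared groups alone and without untreated replicate 1 or 2, and 2 without either DFO 24 h library, while the CREBBP call held in all 17 alternatives. The T003 count of 4 was 1 without untreated replicate 2 or T003 24 h replicate 2, while the PSME3 call held in all 17. In particular, the ATM call with DFO ended without either untreated library or DFO 24 h replicate 1, that of EP300 without either untreated library or DFO 24 h replicate 2, and those of RPL5 and PPP1R13B when any one untreated or DFO 24 h library was left out (adjusted p = 0.0528 to 0.185). With T003 the ATM call ended without untreated replicate 2 or T003 24 h replicate 2, and that of TP53BP1 also without untreated replicate 1. That of RPL5 ended when any one untreated or T003 24 h library or T003 6 h replicate 1 was left out, with no filter and with the replicate block (adjusted p for the 3 genes 0.0554 to 0.22).

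Some partners of FAS were called at 24 h, and FAS was not. With T003 the 95% interval of FAS (-0.33 to 0.08) includes falls of the size given below for its partners. Whether FAS differed from them was not tested. CFLAR, the decoy that holds back caspase 8, was at 158 ± 3.44 CPM in untreated cells. It fell by 0.28 with DFO, to 130 CPM (SE 0.0275, adjusted p = 0.000162), and by 0.31 with T003, to 127 CPM (SE 0.0275, adjusted p = 5.53e-05). Both calls held in all 17 alternatives. CASP8, the initiator caspase that FAS engages, fell by 0.19 with DFO and 0.18 with T003 (adjusted p = 0.0185 and 0.0166). FASLG, the ligand of FAS, was at 79.0 CPM in untreated cells, had a log2 change of -0.12 with DFO (adjusted p = 0.0892) and fell by 0.18 with T003 (adjusted p = 0.00955). Over the whole list of 21 partners and paralogs, 19 could be tested, and 0 rose and 2 fell with DFO and 3 rose and 3 fell with T003. The shares called were 10.5% with DFO and 31.6% with T003, against 6.7% and 12.5% of all genes. The DFO count of 2 was 1 when any one untreated or DFO 24 h library was left out and 4 with DESeq2, and the T003 count of 6 was 3 without untreated replicate 1 or T003 24 h replicate 1. The CASP8 call ended without either untreated library with each agent, without either DFO 24 h library with DFO and without T003 24 h replicate 1 with T003 (adjusted p = 0.0645 to 0.125). That of FASLG ended without untreated replicate 2 or T003 24 h replicate 1 (0.0684 and 0.0751).

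For likeness of pattern, Pearson's r was taken over the 10 libraries on the log2 CPM scale against genes with a mean of at least 4 CPM. Libraries of one group and time share their treatment, so these values only describe. AEN was most like RAB8A (r = 0.991), PXN (r = 0.991) and RRP7BP (r = 0.987). SESN1 was most like INPP5B (r = 0.978), SARAF (r = 0.974) and NFU1 (r = 0.970). RRM2B was most like CD200R1 (r = 0.971), MTRR (r = 0.963) and TERF1 (r = 0.961). For MDM2 the nearest genes were NAA30 (r = 0.939), DNAAF2 (r = 0.876) and ZNF639 (r = 0.868), and none of the 9 genes was among the 3 nearest of another.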

How the data were processed

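The authors deposited 1 table of raw estimated counts per gene symbol covering the 10 libraries. The submitters' processing notes, with the design text for the roles, name fastp 0.21.0 for trimming, HISAT2 2.2.1 for mapping to hg38, and StringTie 2.1.6 for counting on RefSeq genes. The deposited expected counts were already whole numbers and were used unrounded. How strand was handled in counting is not stated. Groups came from the sample labels; a count of 0 was read against a limit of 3 counts, which covers counting error only.

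One edgeR model took in the 10 libraries, with no term but group (version 4.0.16, R 4.3.3), using TMM scaling, filterByExpr at a minimum count of 10 and the quasi-likelihood F-test. P-values were adjusted by Benjamini-Hochberg over 20125 genes in each of 8 comparisons. Each SE was derived from the fitted log2 change and its F statistic, and 95% intervals use the test's degrees of freedom. The fitting step was tested on simulated data. Alternatives used RLE scaling, other filters, DESeq2 1.42.0, limma-voom (limma 3.58.1), the replicate number as a block, the compared groups alone and each library left out.

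The 9 genes, the wider lists and the tests were chosen with earlier results of these data known. The 9 genes were then looked up by symbol alone. The 8 that could be tested are given in every comparison, and CDKN1A by its counts. From the wider lists at most the 8 called genes with the smallest p in each 24 h comparison with untreated cells are named, with a short panel named whatever its result; some genes of these lists enter the counts but are not reported here. Gene positions are from RefSeq (GRCh38.p14), and transcript lengths and start sites from GENCODE 44.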

Additional observations from a re-analysis of the deposited data

Results flagged for a closer look

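Between the agents at 24 h, 4 genes of the wider lists differed by the direct edgeR test (T003 minus DFO, 2 libraries each). They were 1 of 50 tested other p53 targets (2%), 2 of 26 p53 regulators (7.69%) and 1 of 19 partners and paralogs (5.26%). Of all genes tested 1.34% were called, and no share was tested against that background. PCNA was lower with T003 (log2 -0.12, adjusted p = 0.0398), at 257 against 279 CPM. CREBBP was higher with T003 (log2 0.14, adjusted p = 0.0416), at 204 against 186 CPM. RRM2 was higher with T003 (log2 0.10, adjusted p = 0.0432), at 542 against 506 CPM. PPP1R13B was higher with T003 (log2 0.20, adjusted p = 0.0479), at 28.7 against 25.0 CPM. The 2 libraries of each agent did not overlap in any of the 4, but the 4 were picked by these same values, so this adds no support. Called or not, 25 of the 50 other p53 targets, 11 of the 26 regulators and 7 of the 19 partners and paralogs did not overlap either. All 4 calls ended with the replicate number as a block, in a fit of the compared groups alone and without any single library of T003 at 6 h or 24 h or of DFO at 24 h. Without a DFO 6 h library those of CREBBP, RRM2 and PPP1R13B ended too, and without an untreated library those of RRM2 and PPP1R13B. Where lost, the adjusted p was 0.0545 to 0.258.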

How the results depend on the processing

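Of 1103 refitted log2 changes of the 8 tested genes, 1078 kept their side of the threshold, 18 lost a call, 7 gained one, and none changed sign where either fit made a call; a change of sign between 2 uncalled values was not counted. The number of the 8 genes called rose from 0 to 1 with DFO at 24 h under DESeq2 (SESN1), and from 0 to 1 between the agents at 24 h under DESeq2, limma-voom and the filter of 1 CPM in 2 libraries (AEN). With T003 at 24 h it was 1 in place of 2 under the replicate block. MDM4 was called from 6 h to 24 h with T003 under DESeq2 (-0.18, adjusted p = 0.0281) and the filter of 1 CPM (-0.18, 0.0442). With each library left out, 1 to 2 were called with T003 at 24 h, 1 to 3 from 6 h to 24 h with either agent, and 0 in every other comparison. The cause of these differences was not tested.

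Counts over all genes moved further. Left-out libraries gave 1 to 11 genes with DFO at 6 h, 1 to 13 with T003 at 6 h, 431 to 1383 with DFO at 24 h, 1084 to 2544 with T003 at 24 h, 0 to 4 and 14 to 229 between the agents at 6 h and 24 h, and 950 to 1824 and 1336 to 2739 from 6 h to 24 h with DFO and T003. DESeq2 called 434 and 69 genes with DFO and T003 at 6 h, and 6 and 878 between the agents at 6 h and 24 h. With DFO at 6 h limma-voom called 25 and no filter 16. Between the agents at 6 h no filter, the filter of 1 CPM and the compared groups alone each called 2, and limma-voom and the replicate block each called 1. A fit of the compared groups alone called 851 with DFO at 24 h, 55 between the agents at 24 h and 1293 from 6 h to 24 h with DFO, and the filter of 1 CPM called 446 between the agents at 24 h.

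Same-numbered libraries did not deviate together in all groups, so the numbers were not taken as pairs. The r over 10215 genes was -0.344 to 0.325, over 0.1 in 2 of 10 pairs of groups and under -0.1 in 4. Untreated cells were at -0.265 with DFO at 6 h, -0.273 with T003 at 6 h and -0.344 with DFO at 24 h. DFO at 24 h was at 0.245 with DFO at 6 h and 0.325 with T003 at 6 h. The replicate block called 2 and 1 genes with DFO and T003 at 6 h and 117 between the agents at 24 h. With the untreated numbers crossed, an alternative added after seeing the data, the block called 4 and 1 genes at 6 h and 1184 and 2280 at 24 h with DFO and T003.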

Other observations

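Upstream of MDM2, the gene CDKN2A, whose locus also encodes the MDM2 inhibitor ARF, was at 151 to 208 CPM in the 10 libraries; the table does not separate the 2 products. The p53 relatives TP63 and TP73 had 0 counts in all libraries, and HIPK2, a kinase that can phosphorylate p53, had 0 counts in all but 1. These are values only, and no explanation was tested.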
